A study of Mus musculus with 4 samples.

Results

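S100a8, S100a9, Ngp, Camp, Lcn2, Ltf, Chil3, Cd177, Mmp8 and Mmp9 encode alarmins and granule proteins that neutrophils make in bulk, and they were followed in dorsal root ganglia of the mouse, where the cell bodies of sensory neurons lie beside the spinal cord. The 10 genes were found by their symbols in the platform annotation, which gave 12 of 45101 probe sets. Of these, 11 carried the symbol of 1 of the genes alone and 1 was shared by Chil3 and Chil4. All 12 lay above the filter on low signal described with the processing, and the 10 genes were among 13543 tested genes. They were chosen by their intensities on these same arrays, several of them having been higher at the sample-2 level in an earlier analysis. Their differences between the levels are therefore described here and not tested.

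Total RNA of freshly dissected ganglia from mice was hybridised to 4 Affymetrix arrays. Of these, 2 held ganglia of one level, called the sample-2 level after the labels, and 2 held ganglia of the other, the sample-1 level. The labels do not name the levels, and they state no strain, age, sex, treatment, pooling or perfusion of the animals. Nothing in them says that replicate arrays stand for different animals. A p-value here covers the spread among these 4 arrays alone, and that spread could be technical. The values are deposited intensities per probe set on a linear scale, without calls against background, and the number of arrays limits their precision.

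The RNA carried the markers of the labelled tissue. Prph, the intermediate filament peripherin of peripheral neurons, had intensities of 6236 and 5829 at the sample-2 level, against 5658 and 5712 at the sample-1 level. Fabp7, a fatty acid-binding protein of satellite glia, had 3349 and 3541 at the sample-2 level and 3357 and 3724 at the sample-1 level. Both genes were bright on every array. Markers that define neutrophils were dim. Csf3r, the receptor for granulocyte colony-stimulating factor, read 26.3 and 41.3 at the sample-2 level and 26.6 and 5.27 at the sample-1 level. Cxcr2, the chemokine receptor of mature neutrophils, read 21.4 and 16.9 at the sample-2 level, against 4.81 and 2.22 at the sample-1 level, and its mean lay below the filter. In RNA of a whole tissue, more cells of a type and more RNA per cell cannot be told apart.

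Neutrophils form in the bone marrow and fill their granules in sequence. Azurophil granules, with myeloperoxidase and serine proteases, are filled in promyelocytes. Specific granules, with lactoferrin, cathelicidin and lipocalin 2, are filled in myelocytes and metamyelocytes, and gelatinase granules in later cells. Each granule protein is thus transcribed mainly at its own stage. S100A8 and S100A9 differ from these: they pair as calprotectin, fill the cytosol, and act as alarmins when released, while their transcripts remain abundant in mature cells. The specific granule genes of the mouse depend on C/EBP epsilon, a transcription factor of granulocyte precursors.

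Sequence before the start of the gene was found for 9 of the 10 genes in RefSeq's promoter table (GRCm38.p6), and that of 4 specific granule genes is shown because they are the ones classically tied to C/EBP epsilon. The 250 bases before each start are given 5′ to 3′ on the strand of the gene. Capitals mark matches to TTNNGNAA, a form that C/EBP sites take, searched on both strands, so a match on the other strand appears as its reverse complement. The windows are chr9:110419558-110419807 on the plus strand for Ngp, chr9:109849457-109849706 on the minus strand for Camp, chr2:32387740-32387989 on the minus strand for Lcn2 and chr9:111019042-111019291 on the plus strand for Ltf.
Ngp: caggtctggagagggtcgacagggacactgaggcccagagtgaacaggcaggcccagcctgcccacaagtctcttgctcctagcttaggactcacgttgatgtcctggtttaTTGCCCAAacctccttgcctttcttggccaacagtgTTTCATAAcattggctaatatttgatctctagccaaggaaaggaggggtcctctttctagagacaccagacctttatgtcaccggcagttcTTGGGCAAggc
Camp: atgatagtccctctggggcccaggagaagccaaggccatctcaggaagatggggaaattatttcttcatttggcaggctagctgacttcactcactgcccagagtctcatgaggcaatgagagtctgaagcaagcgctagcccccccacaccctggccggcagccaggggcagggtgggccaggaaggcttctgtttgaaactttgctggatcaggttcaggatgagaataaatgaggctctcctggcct
Lcn2: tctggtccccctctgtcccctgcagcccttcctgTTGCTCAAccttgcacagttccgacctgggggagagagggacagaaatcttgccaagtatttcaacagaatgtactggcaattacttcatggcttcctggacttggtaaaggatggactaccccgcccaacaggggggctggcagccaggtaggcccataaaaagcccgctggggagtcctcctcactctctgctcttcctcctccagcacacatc
Ltf: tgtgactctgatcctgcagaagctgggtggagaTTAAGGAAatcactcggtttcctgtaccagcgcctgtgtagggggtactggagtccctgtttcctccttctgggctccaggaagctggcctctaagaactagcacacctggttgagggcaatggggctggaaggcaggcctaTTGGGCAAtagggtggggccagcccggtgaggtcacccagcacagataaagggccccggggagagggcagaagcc
Ngp held 3 matches, Ltf 2, Lcn2 1 and Camp 0. The letters TTGGGCAA occurred in both Ngp and Ltf, where the match nearest the start began 11 bases before it in Ngp and 75 bases before it in Ltf. Among all 9 genes, 8 had at least 1 match, with Chil3 at 3, S100a9 and Mmp8 at 2 each and S100a8 and Cd177 at 1 each. Of 32851 promoters in the table, 36.8% had a match in the same window. A match describes the letters and does not show binding. S100a8 and S100a9 are direct neighbours among protein-coding genes in that annotation, and Camp, Ngp and Ltf lie on chromosome 9 with 8 protein-coding genes between Camp and Ngp and 20 between Ngp and Ltf.

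Each of the 10 genes was higher at the sample-2 level by its brightest probe set, with both sample-2 arrays above both sample-1 arrays. Over all tested genes, 20.5% had both sample-2 arrays above both sample-1 arrays and 22.3% had both below. Since the genes were picked with this contrast known, nothing is read from their count. The ratio of the mean intensities lay between 1.63 for Mmp9 and 2.38 for Mmp8, and was at least 2 for 7 of the 10. Of the 10, 9 had a difference at or above that of a 1.5-fold change, as had 1.20% of all tested genes. Differences below are means of log2(intensity + 16) at the sample-2 level minus those at the sample-1 level, with the standard error of the limma fit. Their median over the 10 genes was 1.01, against -0.01 over all tested genes, of which the middle 80% lay between -0.28 and 0.26.

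**Figure D1:**
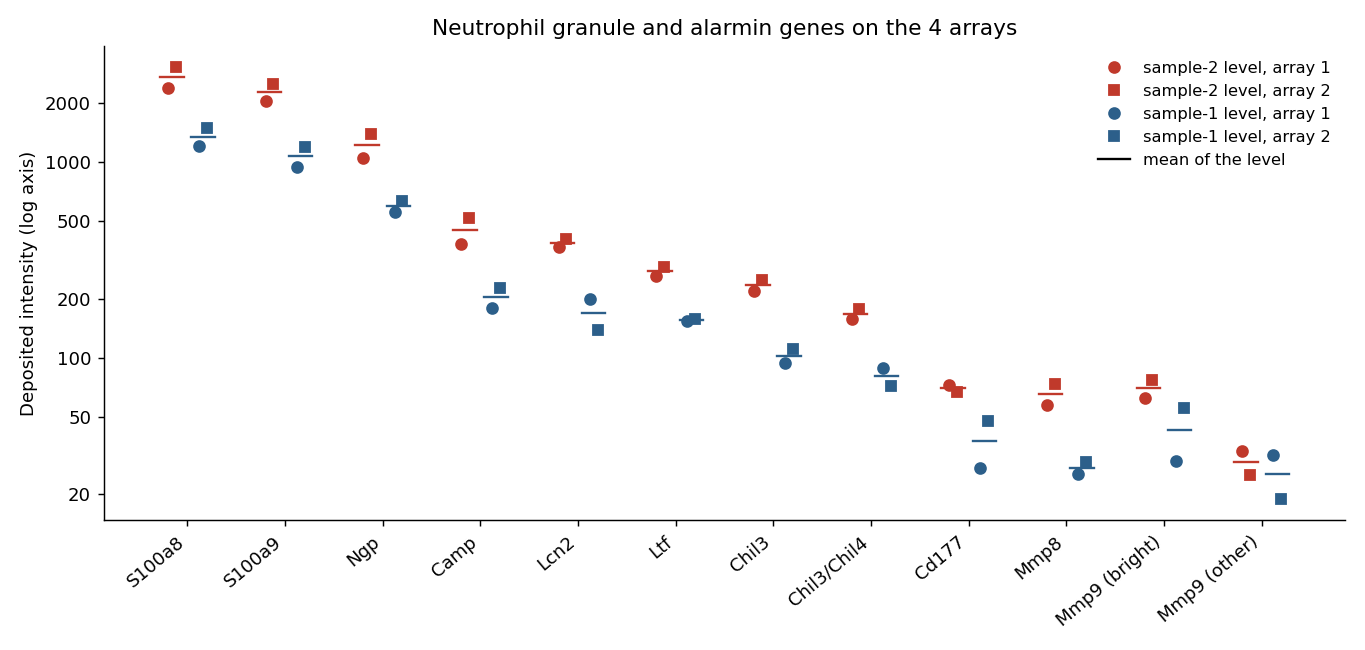
Deposited intensity (log axis) of each probe set of the 10 genes on the 4 arrays, with sample-2 arrays in red, sample-1 arrays in blue, circles for array 1, squares for array 2 and a line at the mean of each level. Both sample-2 arrays lie above both sample-1 arrays for every probe set but the dimmer one of Mmp9.

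The alarmin pair was bright on all arrays, and both genes differed by a similar amount. S100a8 had intensities of 2402 and 3054 at the sample-2 level, against 1205 and 1491 at the sample-1 level, a difference of 1.01 ± 0.12 (SE). Its partner S100a9 had 2052 and 2529 at the sample-2 level, against 951 and 1203 at the sample-1 level, a difference of 1.08 ± 0.12. For both genes the lower sample-2 array was well above the higher sample-1 array, by a ratio of 1.61 for S100a8 and 1.71 for S100a9. In mean intensity, 97.6% of probe sets lay below that of S100a8 and 96.9% below that of S100a9. The probe set of S100a8 is of a kind (suffix _s_at) that can match more than 1 transcript.

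Ngp, neutrophilic granule protein, is a relative of the cathelicidins that is stored in specific granules. It read 1056 and 1396 at the sample-2 level, against 557 and 637 at the sample-1 level (difference 1.01 ± 0.12). Camp, the cathelicidin antimicrobial peptide, read 383 and 516 at the sample-2 level, against 179.7 and 227 at the sample-1 level (1.08 ± 0.15). These related genes thus showed differences of nearly the same size. Lcn2, lipocalin 2, withholds iron from bacteria by binding their siderophores. It read 367 and 406 at the sample-2 level, against 199.8 and 139 at the sample-1 level (1.14 ± 0.15), the largest difference of the 10. Lcn2 was also the gene whose sample-1 arrays ran against the other genes, with array 1 above array 2. Its probe set (suffix _a_at) matches alternative transcripts of the gene.

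Ltf, the iron-binding lactoferrin of specific granules, read 263 and 292 at the sample-2 level, against 154 and 158 at the sample-1 level. Its sample-1 arrays were the closest of the 10 genes (0.03 apart in log2), and its difference of 0.77 ± 0.12 was smaller than those of Ngp, Camp and Lcn2. Chil3, a chitinase-like protein that both neutrophil precursors and some macrophages make in the mouse, read 219.9 and 249.8 at the sample-2 level, against 94.2 and 111 at the sample-1 level (1.08 ± 0.14). The probe set that Chil3 shares with its neighbour Chil4 read 157 and 178 at the sample-2 level, against 88.7 and 71.7 at the sample-1 level (0.93 ± 0.15). It cannot say which of these genes it measured.

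Cd177, a surface protein that neutrophils also store in specific granules, was dim. It read 72.5 and 66.7 at the sample-2 level, against 27.4 and 47.7 at the sample-1 level (0.70 ± 0.21). Mmp8, the neutrophil collagenase, whose transcript appears late in maturation, read 57.1 and 73.1 at the sample-2 level, against 25.3 and 29.4 at the sample-1 level (0.90 ± 0.20). Mmp8 had the largest ratio of means but not the largest difference, since the added 16 shrinks the log2 difference of dim probe sets. With a pseudocount of 1 the difference of Mmp8 was 1.21, and with 64 it was 0.50. For Cd177 these values were 0.92 and 0.40.

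Mmp9, the gelatinase that gives gelatinase granules their name, had the smallest difference. It was the only one of the 10 genes with 2 probe sets of its own, and these diverged. The brighter probe set read 62.0 and 77.2 at the sample-2 level, against 29.7 and 55.5 at the sample-1 level (0.58 ± 0.23). The dimmer one read 33.3 and 25.2 at the sample-2 level, against 31.7 and 19.0 at the sample-1 level (0.14 ± 0.25), with overlapping arrays. Of the 10 genes, Mmp9 and Cd177 had the widest ranges with single arrays left out. Without sample-1 array 1 the difference of Mmp9 was 0.25 and that of Cd177 0.43, and without sample-1 array 2 they were 0.90 and 0.98. Other cells of an injured or inflamed tissue can also express Mmp9 and Lcn2.

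The 10 differences ranged from 0.58 to 1.14 with standard errors of 0.12 to 0.23. No gap between neighbours in that order exceeded the larger of their standard errors, and no pair was tested against another. A difference at or above 0.58 was found for 174 of the 13543 tested genes, the 10 included, and a difference at or above their median of 1.01 for 19, of which 5 were among the 10.

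The spread between arrays of 1 level is given as a description too, since the genes were chosen by intensities on these arrays. Array 2 was above array 1 for 9 of the 10 genes at the sample-2 level, with Cd177 as the exception (-0.10), and for 9 of the 10 at the sample-1 level, with Lcn2 as the exception (-0.48). Over all tested genes, array 2 was above array 1 for 49.7% at the sample-2 level and for 51.7% at the sample-1 level. The median of array 2 minus array 1 over the 10 genes was 0.27 at the sample-2 level and 0.25 at the sample-1 level, in log2(intensity + 16). Genes on 1 array share its RNA, so the 10 values are not independent. The array number pairs nothing in the labels. For Mmp9 the gap between the sample-1 arrays, 0.65, was larger than the difference between the levels.

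**Figure D2:**
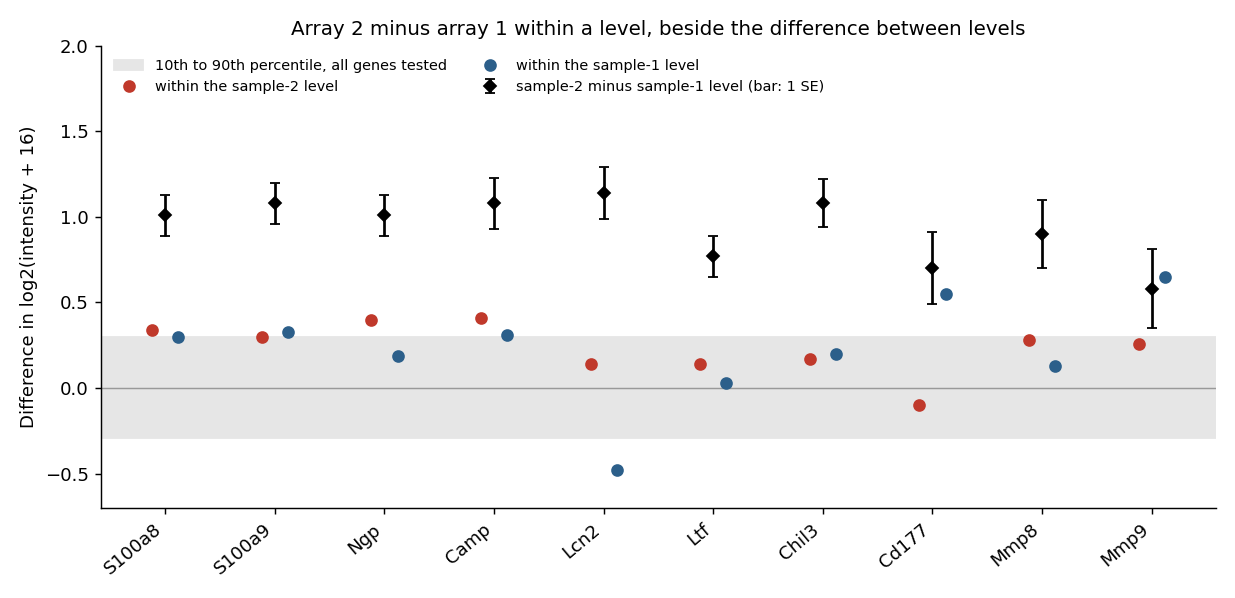
Array 2 minus array 1 in log2(intensity + 16) within the sample-2 level (red) and the sample-1 level (blue) for each of the 10 genes, beside the difference between levels (black, bars of 1 SE), over the 10th to 90th percentile of the within-level differences of all tested genes (grey). Most within-level points lie above 0 and below the difference between levels, with Mmp9 at the sample-1 level above its own.

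Genes listed for the promyelocyte stage and its azurophil granule, which is filled before the specific granule, lay on both sides of 0. Not all of them encode proteins of that granule. None of the 7 tested passed limma's adjusted p of 0.05, which 0.842% of all tested genes passed (0.295% higher and 0.546% lower) and 0.622% of all probe sets. At an unadjusted p under 0.05, 1 of the 7 was higher and 2 were lower, against 5.73% of all tested genes higher and 6.61% lower. The lower ones were the brightest of the list. Serpinb1a read 1062 and 1117 at the sample-2 level, against 1261 and 1219 at the sample-1 level (-0.18 ± 0.08, adjusted p = 0.427). For Ctsc the values were 213 and 179, against 254 and 242 (-0.32 ± 0.12, adjusted p = 0.360). The median difference of the 7 genes was 0.01. Mpo, myeloperoxidase, read 68.4 and 95.3 at the sample-2 level, against 22.6 and 62.0 at the sample-1 level (0.82 ± 0.28, adjusted p = 0.281). Elane, neutrophil elastase, read 33.9 and 41.9 at the sample-2 level and 35.1 and 38.3 at the sample-1 level, with overlapping arrays. Prtn3, proteinase 3, read 45.6 and 61.8 at the sample-2 level, against 35.1 and 41.1 at the sample-1 level (0.36 ± 0.20, adjusted p = 0.565). Within this list Mpo and Prtn3 were thus the genes with sample-2 arrays above sample-1 arrays, neither past the threshold.

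Other genes of the specific granule and the myelocyte stage lay mostly above 0. Of 12 measured, 10 were tested, 7 of them above 0, with a median difference of 0.35. None passed, and 2 were higher and 0 lower at an unadjusted p under 0.05. Hp, haptoglobin, which neutrophils carry in specific granules, read 53.2 and 60.5 at the sample-2 level, against 29.1 and 32.9 at the sample-1 level (0.63 ± 0.19, adjusted p = 0.217). Padi4, the enzyme that citrullinates histones in neutrophils, read 29.8 and 21.9 at the sample-2 level, against 11.6 and 15.4 at the sample-1 level (0.50 ± 0.26, adjusted p = 0.522). The arrays of both genes did not overlap between levels.

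Genes of mature neutrophils lay above 0 in 9 of 10 tested, with a median of 0.44, while 7 further genes were below the filter. None passed limma's threshold, and 3 were higher and 0 lower at an unadjusted p under 0.05. Slfn4, a schlafen gene of myeloid cells, read 44.5 and 49.5 at the sample-2 level, against 19.2 and 27.3 at the sample-1 level (0.69 ± 0.22, adjusted p = 0.230). Csf3r, whose values are given above, had the largest difference among the 10 tested genes (0.71 ± 0.33, adjusted p = 0.464), and its arrays overlapped. Both sample-2 arrays were above both sample-1 arrays for 6 of the 10 tested genes, against 20.5% of all tested genes. The share of all tested genes that was higher at an unadjusted p under 0.05 was 5.73%.

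Among 8 tested transcription factors of granulocyte formation none passed, 2 were higher and 0 lower at an unadjusted p under 0.05, and the median was 0.16. Below 0 lay 3 of the 8, all with overlapping arrays. They were the C/EBP genes Cebpa (-0.08 ± 0.18), Cebpb (-0.02 ± 0.15) and Cebpd (-0.23 ± 0.14). The gene of C/EBP epsilon was not in the list. Myb, which keeps precursors immature, read 30.2 and 28.2 at the sample-2 level, against 9.86 and 11.3 at the sample-1 level (0.77 ± 0.25, adjusted p = 0.252). Spi1, the myeloid factor PU.1, read 42.9 and 39.5 at the sample-2 level, against 32.0 and 22.8 at the sample-1 level (0.41 ± 0.22, adjusted p = 0.539). These dim genes had arrays that did not overlap between levels. Among 12 tested genes of dividing cells the median was 0.13 and none passed, with 1 higher at an unadjusted p under 0.05. Rrm2, a ribonucleotide reductase subunit used in DNA synthesis, read 72.1 and 87.5 at the sample-2 level, against 30.5 and 42.1 at the sample-1 level (0.88 ± 0.19, adjusted p = 0.0743). The probe sets used for Myb and Rrm2 (suffix _x_at) are each 1 of 3 for the gene and can also match other transcripts.

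Relatives and partners of the alarmins lay on both sides of 0. Of 9 tested S100 genes other than S100a8 and S100a9, 0 passed and 0 had an unadjusted p under 0.05, and the median was -0.04 with a range of -0.21 to 0.13. S100a16 read 595 and 701 at the sample-2 level, against 725 and 774 at the sample-1 level (-0.21 ± 0.10, adjusted p = 0.484). S100a4 read 438 and 475 at the sample-2 level, against 516 and 538 at the sample-1 level (-0.20 ± 0.10, adjusted p = 0.484). These 2 lay lower on both sample-2 arrays. Receptors and inhibitors of the 10 products had a median of -0.13 over 14 tested genes, of which none passed and 3 were lower and 0 higher at an unadjusted p under 0.05. Tlr4, a receptor through which S100A8 and S100A9 signal, read 27.8 and 36.4 at the sample-2 level, against 41.2 and 38.0 at the sample-1 level. Timp1, an inhibitor of metalloproteinases such as MMP9, read 40.2 and 36.4 at the sample-2 level, against 61.8 and 54.7 at the sample-1 level (-0.45 ± 0.19, adjusted p = 0.397). Above 0 lay 4 of the 14, with Timp4, an inhibitor related to Timp1, highest at 22.7 and 23.7 in the sample-2 arrays and 24.3 and 4.68 in the overlapping sample-1 arrays (0.44 ± 0.32, adjusted p = 0.683). Cd33, a sialic acid-binding receptor of myeloid cells, had the largest difference of that list (-0.48 ± 0.32, adjusted p = 0.635) at 3.39 and 18.3 in the sample-2 arrays and 20.6 and 19.4 in the sample-1 arrays.

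Lists of other blood cells lay partly above 0 as well, and their part in the differences of the 10 genes was not tested. Of 11 tested red cell genes 8 lay above 0, with a median of 0.45. At an unadjusted p under 0.05, 4 were higher and 0 lower, against 5.73% of all tested genes higher. By the adjusted p 1 passed as higher, by 1 of its 3 probe sets. That gene, Slc4a1, the anion exchanger of red cells, read 182 and 282 at the sample-2 level, against 83.4 and 119 at the sample-1 level (1.07 ± 0.20, adjusted p = 0.0363). Its adjusted p ranged from 0.00742 to 0.173 with single arrays left out and lay above 0.05 when either array 1 of the sample-1 level (0.112) or array 2 of the sample-2 level (0.173) was dropped. It was 0.387 without the filter, 0.445 without limma's intensity trend, 0.0571 with medians centred and 0.0770 without suffixed probe sets. The summed intensity of the 13 measured red cell genes, out of 20 listed, was 1898 and 2155 on the sample-2 arrays and 1806 and 1725 on the sample-1 arrays. Hba-a1 was the only globin among the 13. It read 3.46 and 5.23 at the sample-2 level and 1.64 and 2.68 at the sample-1 level, below the filter. The sum therefore says little about globin RNA. Much of that sum was Tfrc, the transferrin receptor of many dividing cells, at 882 and 926 on the sample-2 arrays and 1014 and 882 on the sample-1 arrays (-0.06 ± 0.09). Besides Slc4a1, the larger differences were those of Rhag (0.94 ± 0.27, adjusted p = 0.171), the mitochondrial iron importer Slc25a37 (0.70 ± 0.14, adjusted p = 0.0524) and Alas2, an enzyme of heme synthesis (0.64 ± 0.15, adjusted p = 0.100). Rhag was tested only because of its sample-2 level, since its sample-1 values of 7.11 and 9.37 lie under the filter level. Of 6 tested platelet genes 5 lay above 0 (median 0.35). Ppbp, a platelet chemokine, read 84.7 and 156 at the sample-2 level, against 52.6 and 39.6 at the sample-1 level (1.09 ± 0.23, adjusted p = 0.0662). Of 10 tested B cell genes 6 lay above 0 and 4 below it (median 0.32). The largest difference was that of Blnk, a signalling adaptor, at 35.8 and 43.8 in the sample-2 arrays and 17.4 and 26.8 in the sample-1 arrays (0.56 ± 0.23, adjusted p = 0.401). The dim genes Igll1 (-0.45 ± 0.26, adjusted p = 0.574), Fcer2a (-0.26 ± 0.26, adjusted p = 0.787) and Vpreb3 (-0.22 ± 0.25, adjusted p = 0.817) were lower on both sample-2 arrays. By its brightest probe set no platelet or B cell gene passed. For Ebf1, a transcription factor of B cells, 1 of 5 probe sets passed as higher, while the brightest had a difference of 0.36 ± 0.08 (adjusted p = 0.0919). That brightest probe set read 1013 and 1029 at the sample-2 level, against 815 and 773 at the sample-1 level. The next brightest gene of the list, Cd79a, read 60.6 and 41.3 at the sample-2 level, against 32.3 and 34.7 at the sample-1 level. Which cells gave the Ebf1 signal was not tested. By brightest probe sets, 1 platelet gene and 2 genes of the B cell list, Ebf1 among them, were higher and 0 lower at an unadjusted p under 0.05.

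Monocyte and macrophage genes lay closer to 0 or below it. Monocyte genes had a median of 0.14 over 9 tested, of which none passed and 1 was higher and 1 lower at an unadjusted p under 0.05. Plac8, a gene of monocytes and granulocytes, read 93.0 and 91.4 at the sample-2 level, against 55.9 and 57.3 at the sample-1 level (0.58 ± 0.16, adjusted p = 0.156). Macrophage genes had a median of -0.20 over 14 tested, 12 of them below 0. None passed, and 5 were lower and 0 higher at an unadjusted p under 0.05. C1qc, a complement subunit made by tissue macrophages, read 80.1 and 64.3 at the sample-2 level, against 103 and 115 at the sample-1 level (-0.50 ± 0.16, adjusted p = 0.234). The summed macrophage level was 1192 and 1136 on the sample-2 arrays and 1397 and 1458 on the sample-1 arrays, so its order was opposite to that of the 10 genes.

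**Figure D3:**
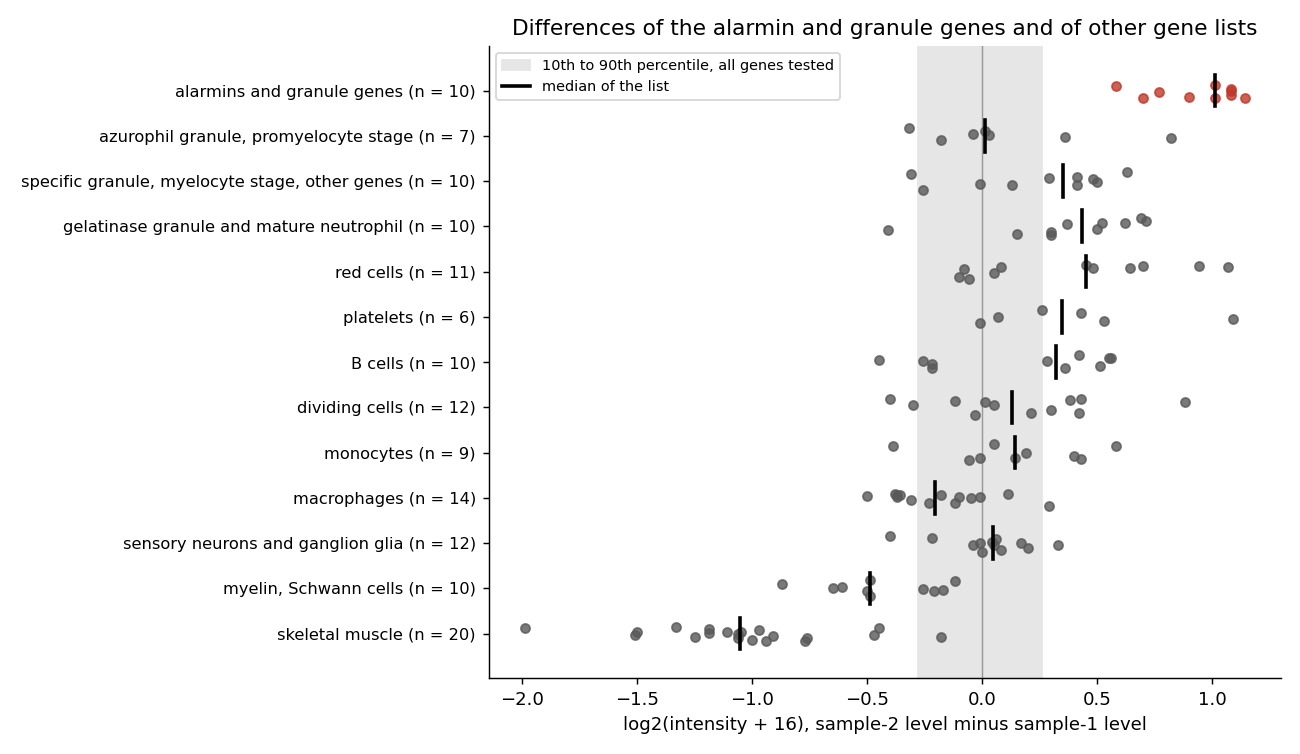
Difference in log2(intensity + 16), sample-2 level minus sample-1 level, of each tested gene by its brightest probe set, with the 10 alarmin and granule genes in red, other lists in grey, a black bar at each median and the 10th to 90th percentile of all tested genes shaded. The 10 genes lie between 0.58 and 1.14, and the list medians run from -1.05 for skeletal muscle to 0.45 for red cells outside them.

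Gene lists of tissues other than blood lay partly away from 0 as well. Skeletal muscle genes summed to 2819 and 1895 on the sample-2 arrays, and to 2377 on sample-1 array 1 and 11673 on sample-1 array 2. Without sample-1 array 2, the median difference of the 10 genes was 1.04, against 1.01 with all arrays. Since the 10 genes were chosen with this contrast known, nothing about muscle RNA is read from these medians. All 20 tested muscle genes lay below 0 (median -1.05), with 11 lower and 0 higher at an unadjusted p under 0.05. Over all tested genes, 6.61% were lower at that p. Of the 20, 1 passed as lower by the adjusted p, the myosin heavy chain Myh2. It read 2.16 and 11.7 at the sample-2 level, against 42.8 and 119.6 at the sample-1 level (-1.99 ± 0.35, adjusted p = 0.0319). Both sample-2 values lie under the filter level of 14.3, so Myh2 was tested only because of its sample-1 level. Its adjusted p was 0.150 when array 2 of the sample-1 level was dropped, 0.0718 when array 1 of the sample-2 level was, 0.397 without the filter and 0.429 without the intensity trend. Myelin genes lay below 0 in 10 of 10 tested (median -0.49), with 7 lower and 0 higher at an unadjusted p under 0.05. For the myelin gene Mbp, 1 of 8 probe sets passed as lower, while the brightest did not (-0.17 ± 0.07, adjusted p = 0.441). Ugt8a, which makes the galactolipids of myelin, passed as lower by 1 of its 2 probe sets. It read 651 and 456 at the sample-2 level, against 1193 and 855 at the sample-1 level (-0.87 ± 0.17, adjusted p = 0.0429). The call was lost when array 1 of the sample-1 level (0.143) or array 2 of the sample-2 level (0.135) was dropped. It was also lost with medians centred (0.0824), with quantile normalization (0.0507), with a pseudocount of 1 (0.0536), without the filter (0.407) and without the trend (0.483). The part of muscle and myelin RNA in the differences of the 10 genes was not tested. Neuron and glia markers summed to 50524 and 46624 on the sample-2 arrays and 47525 and 49094 on the sample-1 arrays. Their median difference was 0.05 over 12 genes, of which none passed. At an unadjusted p under 0.05, 1 was higher and 2 were lower. Scn10a was higher on both sample-2 arrays (0.33 ± 0.12, adjusted p = 0.286). Sox10 (-0.40 ± 0.12, adjusted p = 0.192) and Nefh (-0.22 ± 0.08, adjusted p = 0.302) were lower on both. The 10 genes summed to 6934 and 8659 on the sample-2 arrays and 3422 and 4097 on the sample-1 arrays. Because the deposited values were scaled, each of these levels is a share of the RNA hybridised.

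**Figure D4:**
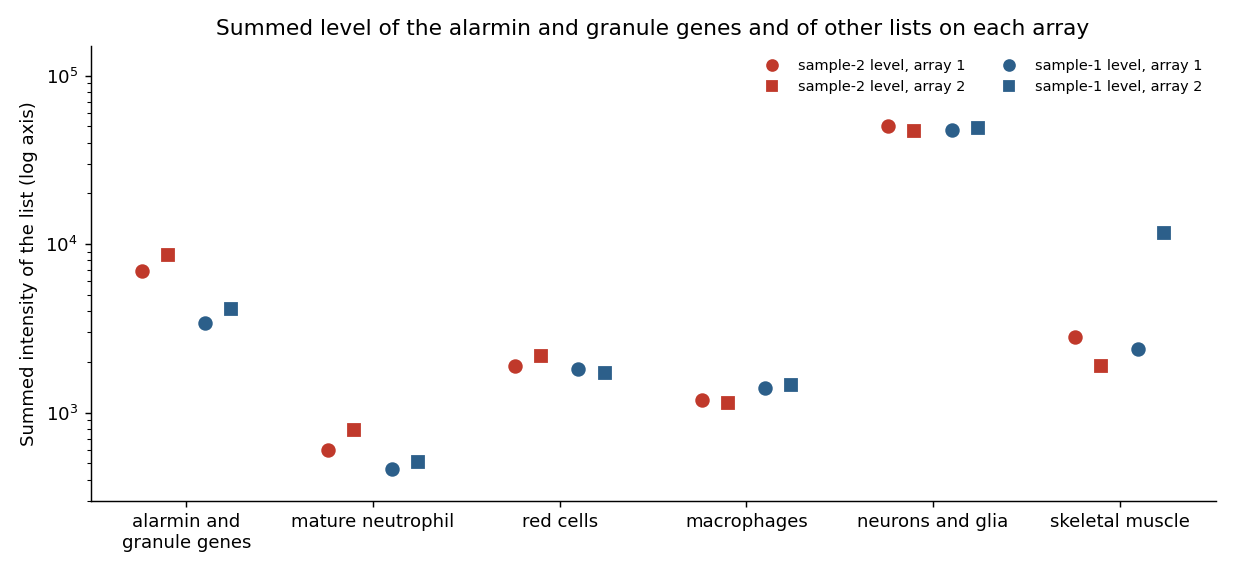
Summed intensity (log axis) of the 10 alarmin and granule genes and of 5 other lists on each array, with sample-2 arrays in red, sample-1 arrays in blue, circles for array 1 and squares for array 2. The 10 genes, picked with this contrast known, separate the levels. The mature neutrophil and red cell sums are also higher on both sample-2 arrays, and the macrophage sum is lower. Hba-a1, at a dim signal, is the only globin in the red cell sum. Skeletal muscle stands out on sample-1 array 2, while neuron and glia markers lie close together.

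The 8 other genes whose profile over the 4 arrays came nearest to the mean profile of the 10 were Syt17, Rrm2, Rhag, Ifitm6, Ccdc192, Mlc1, Hmgn5 and Celf3, out of 13533. Nearness was the root mean square distance between centred log2 values, which ran from 0.0380 for Syt17 to 0.0986 for Celf3, while the 10 genes themselves lay 0.0400 (Mmp8) to 0.271 (Lcn2) from their own mean. Ifitm6, an interferon-induced transmembrane protein of myeloid cells, read 102 and 117 at the sample-2 level and 45.9 and 61.8 at the sample-1 level. Rhag, the Rh-associated glycoprotein of red cells, read 25.0 and 36.4 at the sample-2 level. Its sample-1 values of 7.11 and 9.37 lay under the filter level. Syt17, a synaptotagmin, read 36.3 and 47.3 at the sample-2 level and 12.5 and 18.5 at the sample-1 level. With 4 arrays such likeness describes these arrays only.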

How the data were processed

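Total RNA from dorsal root ganglia of 2 levels was measured on 4 Affymetrix arrays. The intensity values are those the authors deposited, on a linear scale, and every array has a mean of 150.0 once its highest and lowest 2% are trimmed, which shows a scaling to 1 target. The software behind them is not given in the sources used here. Values were taken as log2(intensity + 16). The 64 control probe sets and those whose mean lay under the 40th percentile (an intensity of 14.3) were left out, and the remaining 27022 were fitted with limma 3.58.1 (R 4.3.3, eBayes with an intensity trend, no covariate), with Benjamini-Hochberg adjustment and a threshold of 0.05. Of these, 60 passed as higher (0.222%) and 108 as lower (0.400%) at the sample-2 level. The filter used the mean over all 4 arrays, so a gene could pass it by its values at 1 level alone. Among the named genes, Padi4, Myb and Rhag had a sample-1 mean under its level. Cd33, Mcpt4, Col2a1, Igll1, Fcer2a and Myh2 had a sample-2 mean under it. The fit was tested on simulated data.

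Symbols came from the platform annotation: 34945 probe sets had 1, 932 several and 9160 none, and probe sets with several named no gene. Gene IDs of 34741 matched a RefSeq table (GRCm38.p6), and a gene is represented by its brightest tested probe set. List members without a probe set of their own, such as Ly6g, were not analysed here. The 10 genes and the gene lists were chosen with earlier results of these data known. Outside the 10, up to 4 genes of a list past the threshold were eligible for naming, or in a list with none past it the 2 of largest difference, and the 8 genes of nearest profile. Elane, Tlr4, Cxcr2, Prph and Fabp7 are named as defining markers or partners outside that rule. Timp4, Ebf1, Tfrc, Slc25a37 and Alas2 also fall outside it and were chosen after their values were seen. The same holds for Cebpa, Cebpb, Cebpd, Igll1, Fcer2a, Vpreb3, Ctsc, Serpinb1a, Nefh, Gal, Mbp, Hba-a1 and Cd79a. Alternatives were other pseudocounts, filters, normalizations and probe sets, the array number as a block, no trend, and each array left out.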

Additional observations from a re-analysis of the deposited data

How the results depend on the processing

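All 10 genes kept a difference above 0 under each of the 14 alternatives run, a sign that their choice had fixed. The median difference was 1.06 with a pseudocount of 1, 0.89 with 64, 0.95 without probe sets of the suffixes _x_at, _s_at and _a_at (8 genes left), and 0.82 to 1.17 with single arrays left out. Calls over all probe sets depended strongly on the setting: the 60 higher and 108 lower became 36 and 68 with array medians centred, 2 and 2 without the filter, 1 and 0 without the intensity trend, and 34 to 67 and 54 to 174 with single arrays left out. In the other lists, 1 gene was higher and 2 were lower. These counts became 0 and 1 with medians centred, 0 and 0 without the filter and without the trend, 2 and 1 with a filter at the 60th percentile, 1 and 1 with a pseudocount of 1 and with quantile normalization, 2 and 2 with a pseudocount of 64, 0 and 2 without suffixed probe sets, and 0 to 3 and 1 to 18 with single arrays left out. The cause of these shifts was not tested.

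Same-numbered arrays of the levels share only a number: the correlation of their deviations from the level means was 0.026. With the array number as a replicate block, the median difference of the 10 genes was 1.01, 331 probe sets were higher and 462 lower, and 10 and 17 genes of the other lists passed. Dim probe sets such as those of Cd177, Mmp8 and Mmp9 lie nearest to the filter level, and the 2 arrays per level limit every value.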

Other observations

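Genes of ganglion injury and inflammation showed no common direction. Of 15 tested none passed limma's threshold, and 1 was higher and 2 were lower at an unadjusted p under 0.05 (median 0.01). Above 0 lay 8 and below it 7. The higher gene, Gal, read 448 and 472 at the sample-2 level, against 308 and 365 at the sample-1 level (0.44 ± 0.11, adjusted p = 0.123). Atf3, an injury-induced transcription factor of sensory neurons, read 72.3 and 65.0 at the sample-2 level, against 117 and 92.8 at the sample-1 level (-0.51 ± 0.16, adjusted p = 0.241). Sprr1a, a protein of regenerating axons, read 59.4 and 25.2 at the sample-2 level, against 94.3 and 70.6 at the sample-1 level (-0.81 ± 0.26, adjusted p = 0.238).

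Eosinophil, basophil and mast cell genes lay on both sides of 0. Of 9 tested none passed, and 1 was higher and 3 were lower at an unadjusted p under 0.05 (median -0.17). Prg2, the major basic protein of eosinophils, read 41.6 and 93.0 at the sample-2 level, against 21.4 and 28.1 at the sample-1 level (0.96 ± 0.28, adjusted p = 0.174). Mcpt4, a mast cell chymase, read 6.08 and 16.1 at the sample-2 level, against 24.7 and 37.1 at the sample-1 level (-0.80 ± 0.28, adjusted p = 0.293). T and NK cell genes were mostly below the filter, with 3 of 13 tested and none past the threshold at either p. Bone and cartilage genes had a median of -0.11 over 7 tested, and none had an unadjusted p under 0.05. Col2a1, a cartilage collagen, read 18.2 and 3.90 at the sample-2 level and 18.1 and 36.5 at the sample-1 level (-0.70 ± 0.33, adjusted p = 0.473). Ibsp, a bone sialoprotein, read 43.5 and 41.4 at the sample-2 level, against 58.7 and 60.5 at the sample-1 level (-0.37 ± 0.18, adjusted p = 0.484).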
